A study of Homo sapiens with 24 samples.

Results

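The transcripts examined here come from 35 genes of the YY1 and Polycomb module, of 60675 genes counted in every library. They are given by symbol: YY1 and its retrogene YY2, the YY1-binding pair RYBP and YAF2, 6 core and 5 accessory subunits of Polycomb repressive complex 2 (PRC2), 15 subunits of Polycomb repressive complex 1 (PRC1), 3 MBT-domain proteins, and ASXL1 and BAP1 of the deubiquitinase complex PR-DUB. Each symbol matched exactly 1 Ensembl identifier. RNA-seq had been performed on ACHN, a renal cancer line of human origin that the submitters list as ccRCC, and on HK2 (HK-2), a non-cancer line derived from human proximal tubule. Each line was sequenced in 4 groups of 3 repeats, 24 libraries in all: a non-targeting hairpin (shNC in the labels, shCtrl hereafter), shKDM5C, shYY1, and Dsh, in which KDM5C and YY1 were knocked down together (double knockdown). KDM5C is a histone demethylase that acts on methylated lysine 4 of histone H3. All groups carry a lentiviral hairpin and were grown in the same medium, and double-knockdown cells were made by giving YY1-depleted cells a second, GFP-labelled vector, so they went through 1 more round of infection and selection than the other groups. Which of the hairpins against each gene was sequenced is not given in the sources used here, and nothing says that the 3 repeats came from separate infections, so p-values measure the spread between these libraries.

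Polycomb complexes keep genes silent. PRC2, built on the methyltransferases EZH2 or EZH1 with EED and SUZ12, methylates histone H3, and PRC1, built on the ubiquitin ligases RING1 or RNF2 with a PCGF protein, ubiquitinates histone H2A. CBX proteins let PRC1 read the PRC2 mark, RYBP and YAF2 take the place of CBX proteins in variant PRC1, and PR-DUB removes the ubiquitin. YY1 is a zinc finger factor that activates or represses genes through a CCAT-containing site, is a homologue of the fly Polycomb recruiter Pho, and works in mammalian cells also with the INO80 remodeller. All values below are RNA levels in bulk cultures, where a change in every cell and a change in the share of cells cannot be told apart.

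Start regions of the members were searched for the letters of a YY1 site, AANATGGC, and of an E2F site, TTTCCCGC or TTTGGCGC, on both strands, because YY1 was depleted and because several PRC2 genes are known E2F targets. RefSeq windows on GRCh38.p14 (250 bases before to 50 after a start) were found for 30 of the 35 members, 45 windows in all, and YY2, CBX2, CBX8, SFMBT1 and BAP1 were among the names without one. The YY1 letters occurred in 11 of the 45 windows, from 9 genes (RBBP7, MTF2, PHF19, PCGF1, BMI1, RNF2, PHC3, L3MBTL2 and ASXL1), against 6.58% of all 35116 windows. TTTCCCGC occurred in windows of 3 genes (SUZ12, MTF2 and PHF19) and 1.63% of all windows, and TTTGGCGC in 1 gene (EZH2) and 0.652% of all windows. No matches of different motifs overlapped. The stretches of 30 bases that hold the matches are shown for the 5 members with a match whose values are given by library below, and for SUZ12, in capitals for the matched letters, 5′ to 3′ on the gene's own strand. Relative to the start of the RefSeq window searched, PHF19, SUZ12 and RBBP7 hold the letters upstream. In EZH2, MTF2 and L3MBTL2 the stretch runs across that start into the first exon. The RBBP7 and PHF19 stretches lie inside the Ensembl genes, whose minus-strand spans reach 16870414 and 120894896. For both genes upstream thus refers to that RefSeq start only. A match is a description of letters and does not show that a factor binds.
PHF19 (chr9:120877314-120877343, minus strand, both motifs): ttcGCGGGAAAacgcgaaaAAGATGGCgcc
MTF2 (chr1:93079282-93079311, plus strand, both motifs): cagtccGCGGGAAAccAAAATGGCgagggg
RBBP7 (chrX:16870038-16870067, minus strand, YY1 letters): cgacccgacgcAAGATGGCgagtaaagaga
L3MBTL2 (chr22:41205306-41205335, plus strand, YY1 letters): cggggcaggccAATATGGCttcctgcacct
SUZ12 (chr17:31936807-31936836, plus strand, E2F letters): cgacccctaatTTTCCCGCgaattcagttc
EZH2 (chr7:148884272-148884301, minus strand, E2F letters): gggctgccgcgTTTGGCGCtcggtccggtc

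Between 15926561 and 24272298 read pairs per library were counted on genes. Among the targeted genes, KDM5C went from 69.7 to 70.8 CPM in ACHN shCtrl to 39.9 to 44.3 in the shKDM5C and double-knockdown libraries, and from 190 to 195 CPM in HK-2 shCtrl to 35.9 to 71.5. With shYY1 alone KDM5C was at 88.7 to 93.3 CPM in ACHN and 231 to 259 in HK-2. Relative to shCtrl the fall was deeper in HK-2. Effects of shKDM5C or of both hairpins compared between the lines below thus compare unequal depletions of KDM5C. The kidney identity of both lines was seen in PAX8 (532.8 to 546.6 CPM in ACHN shCtrl, 245.5 to 262.0 in HK-2 shCtrl) and KRT8 (1390 to 1425 and 1768 to 1863). The 9 renal epithelial markers moved with the double knockdown. They summed to 3080 to 3120 CPM in ACHN shCtrl and 2060 to 2280 in its double knockdown, with 7 lower and 2 higher, and to 3060 to 3160 and 1580 to 1710 CPM in HK-2, with 7 lower and 1 higher (median log2 fold change -0.71 in ACHN and -1.01 in HK-2), where 32.0% and 30.7% of all genes were lower and higher in ACHN and 24.3% and 25.5% in HK-2. Of the proximal tubule markers, GGT1 was present (191.2 to 212.3 CPM in HK-2 shCtrl), while LRP2, CUBN, SLC34A1, AQP1 and ANPEP were at most 1.159 CPM in every library, and the clear cell carcinoma marker CA9 was at most 0.1613 CPM in ACHN cells. The 3 clear cell carcinoma markers summed to 0.924 to 3.41 CPM over the ACHN libraries and to 9.91 to 17.2 over those of HK-2. Immune and hepatic markers (PTPRC, CD3E, ALB) were at or near 0, while the 9 markers of other cell types summed to 551 to 603 CPM in ACHN shCtrl and less in every ACHN knockdown (48.1 to 52.6 with shKDM5C, 156 to 162 with shYY1, 128 to 144 with both), nearly all of it COL1A1, and to 41.7 to 43.7 CPM in HK-2 shCtrl and 93.6 to 104 in its double knockdown, where LUM lay between 8.881 and 11.39 CPM in shCtrl and between 56.92 and 64.95 in the double knockdown. Their part in the results below was not tested. One library stood apart. HK-2 shKDM5C replicate 1 differed from replicates 2 and 3 by a chi-square per gene of 129 and 123, where replicates 2 and 3 differed by 3.20, and it held 523 KDM5C counts against 1297 and 1229. Results that rest on it are therefore given with and without it.

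In control cells, levels per length (FPKM, CPM per kilobase of exon) showed which paralogs each line used most (the plot of control levels). EZH2 was far above EZH1 in both lines, at 24.7 ± 0.373 against 3.27 ± 0.113 FPKM in ACHN and 18.3 ± 0.575 against 3.39 ± 0.358 in HK-2 cells (SD, n = 3). RING1 was above RNF2, at 28.0 ± 0.663 against 8.08 ± 0.0160 in ACHN and 21.3 ± 1.10 against 8.36 ± 0.428 in HK-2. Among the CBX genes listed, CBX6 led with 30.3 ± 0.350 FPKM in ACHN and 12.6 ± 0.0948 in HK-2, and CBX7 was lowest with 1.54 ± 0.0182 and 0.707 ± 0.174 FPKM. In no control library did these orders change. PCGF2 was the highest PCGF gene in both lines (16.3 ± 0.339 and 11.8 ± 0.357 FPKM), and YY1 itself was at 15.9 ± 0.454 FPKM in ACHN and higher in HK-2 cells (log2 difference between the lines -0.59).

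Compared between the shCtrl libraries, ACHN cells had 19 members lower and 12 higher than HK-2 cells (edgeR, adjusted p under 0.05), where 38.0% of all 16988 genes tested were lower and 38.6% higher. RBBP7, a histone chaperone subunit of PRC2, was at 117 to 120 CPM in ACHN and 303 to 325 in HK-2 (log2 difference -1.40, with a standard error, SE, of 0.04, adjusted p = 1.04e-22, edgeR). CBX6 was higher in ACHN by 1.28 on the log2 scale (SE 0.04, adjusted p = 6.61e-22, edgeR) and RYBP by 0.97 (SE 0.06, adjusted p = 1.08e-14, edgeR). Of the 5 PRC2 accessory genes, JARID2, PHF1, MTF2 and PHF19 were lower in ACHN by 0.63 to 0.82 log2 units and AEBP2 did not pass. SFMBT2 was the only member almost absent from a line, with 1, 2 and 0 counts in the ACHN shCtrl libraries and 101, 83 and 60 in HK-2, a log2 difference of -6.20 (SE 0.48, adjusted p = 3.33e-12, edgeR), and it failed the filter on low counts in the comparisons within ACHN.

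**Figure D1:**
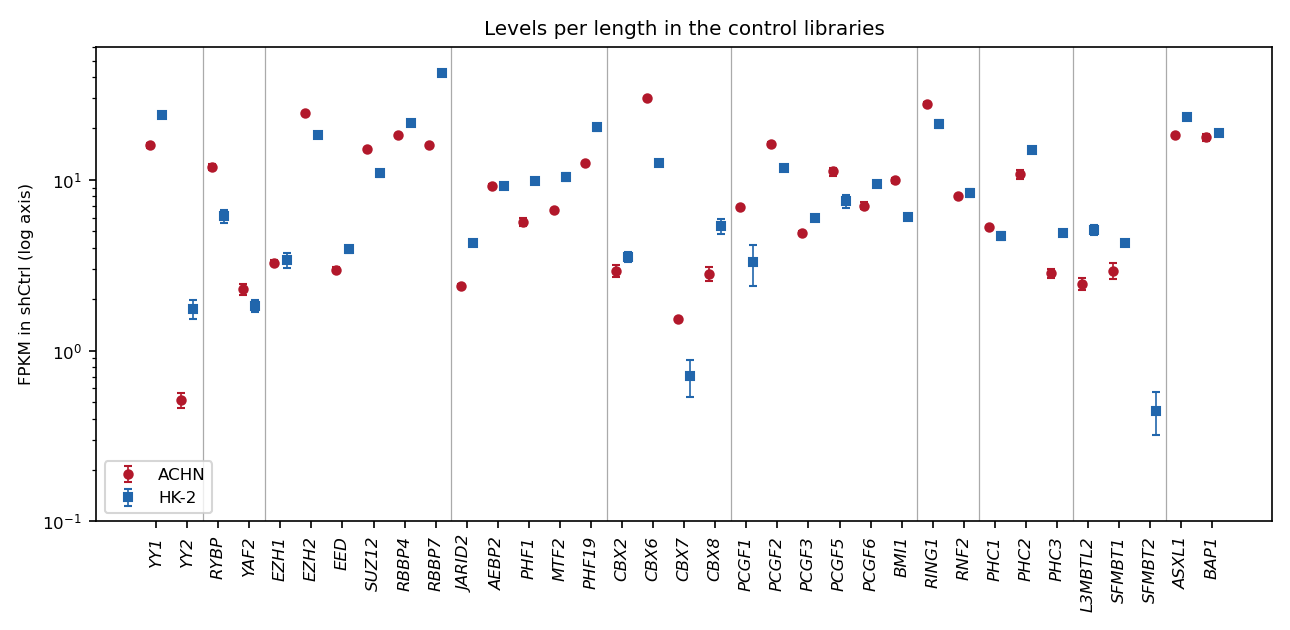
Mean FPKM (log axis) of the members in the 3 shCtrl libraries of ACHN (circles) and HK-2 cells (squares), with SD bars, ordered by role; SFMBT2 in ACHN, at 0 to 2 counts a library, lies below the axis. EZH2 stands above EZH1 and RING1 above RNF2 in both lines, and RBBP7 is highest in HK-2.

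Knockdowns moved many members by small amounts. In ACHN cells 34 members were tested. With shKDM5C, 7 were lower and 12 higher, against 27.7% and 28.9% of all genes tested. With shYY1, 13 were lower and 10 higher, against 24.5% and 24.2%. In the double knockdown 11 were lower and 12 higher, against 32.0% and 30.7%. In HK-2 cells all 35 members were tested. None passed with shKDM5C, where 0.656% of all genes were lower and 0.668% higher, and where 4 members (SUZ12, JARID2, MTF2 and CBX6) were higher and 0 lower at an unadjusted p under 0.05 (edgeR). DESeq2 called 2 members higher there. The shares of all genes at that unadjusted p and with DESeq2 are not given here, so neither count can be set against them. With shYY1, 6 were lower and 9 higher, against 14.7% and 14.3%, and in the HK-2 double knockdown 12 were lower and 13 higher, against 24.3% and 25.5%. The ACHN double knockdown called members in both directions about as often as all genes. Somewhat larger shares than those of all genes were lower with shYY1 in ACHN, higher with shYY1 in HK-2, and called in the HK-2 double knockdown. These differences were not tested, and the members lower with shYY1 include YY1, the target of the hairpin. With all 12 HK-2 libraries in the fit 0 members were higher with shYY1. In that fit 4 were lower and 6 higher in the HK-2 double knockdown, and the share of all genes is not given here. Against shYY1 cells, the double knockdown had 9 members lower and 16 higher in ACHN (32.7% and 32.0% of all genes) and 9 lower and 13 higher in HK-2 (22.9% and 24.8%). At the study's fold threshold (absolute log2 fold change of at least 1.5 with an adjusted p under 0.05) no member passed in ACHN cells, where 3.34%, 3.13% and 8.42% of all genes did with shKDM5C, shYY1 and both. In HK-2 cells YY1 and SFMBT2 passed with shYY1 (1.29% of all genes), SFMBT2 alone in the double knockdown (4.30%) and none with shKDM5C (0.501%). The median log2 fold change of the members lay between -0.05 and 0.10 in these 6 comparisons, and that of all genes between -0.01 and 0.01.

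**Figure D2:**
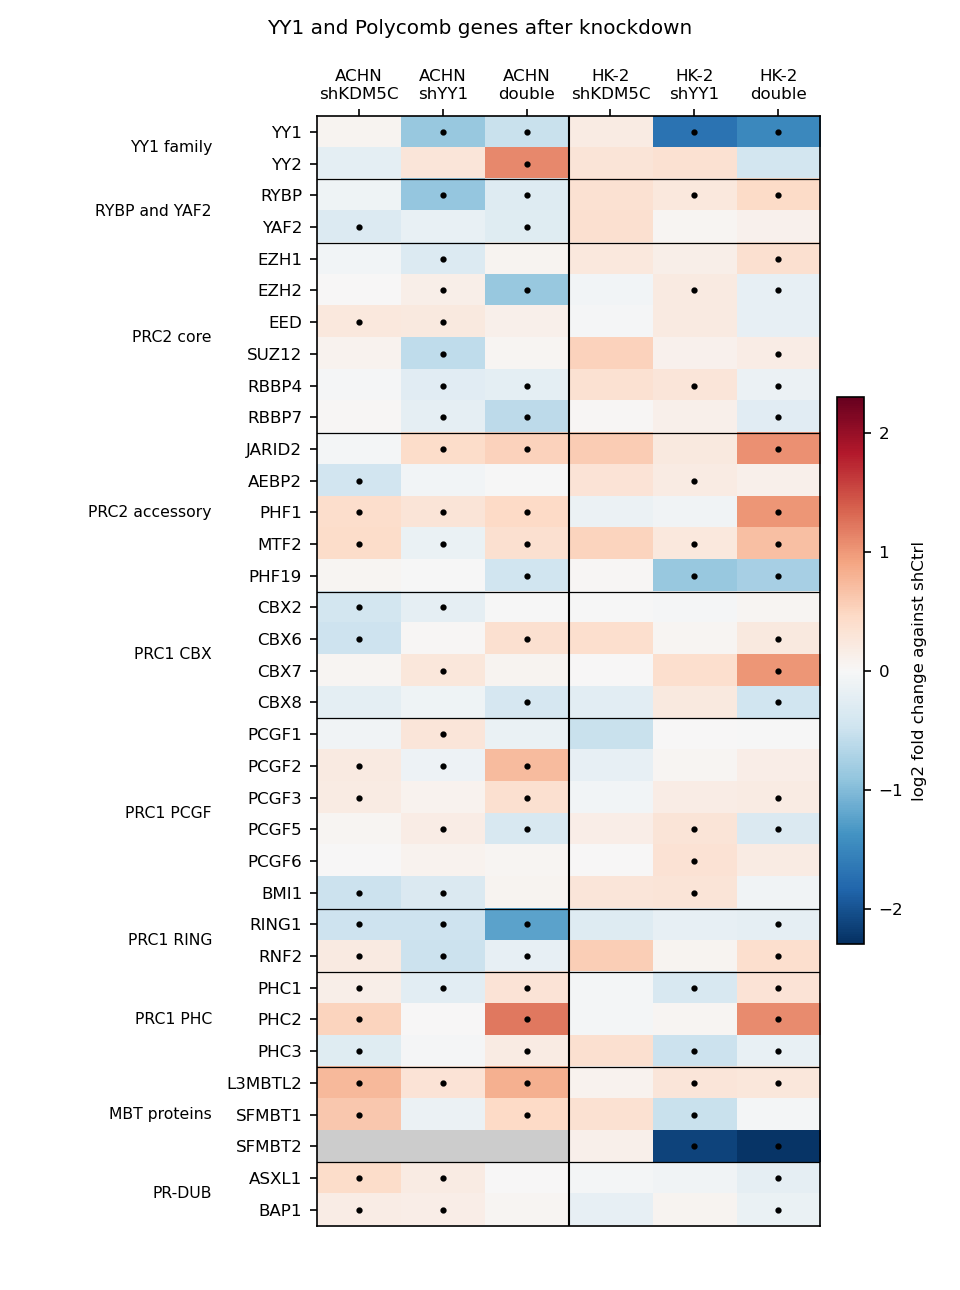
Log2 fold change against shCtrl (colour) of the 35 members (rows, by role) in 6 comparisons (columns); a dot marks an adjusted p under 0.05 (edgeR) and grey a gene not tested. YY1 and SFMBT2 are the darkest cells, in HK-2 shYY1 and double knockdown, and PHC2 is higher in both double knockdowns.

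YY1 (ENSG00000100811, chromosome 14 from 100238298 to 100282792 on GRCh38) was depleted to different depths. ACHN shCtrl libraries held 134, 138 and 142 CPM, shKDM5C 151, 145 and 141, shYY1 79.6, 72.8 and 77.0, and the double knockdown 90.2, 104 and 95.9. HK-2 shCtrl libraries held 212, 214 and 201 CPM, shKDM5C 263, 215 and 227, shYY1 61.9, 67.8 and 62.9, and the double knockdown 75.2, 74.8 and 72.3. In each line every library with a YY1 hairpin was below every library without one. With shYY1 the log2 fold change was -0.88 in ACHN (SE 0.04, adjusted p = 1.65e-19, edgeR) and -1.70 in HK-2 (SE 0.06, adjusted p = 2.21e-15, edgeR), a difference between lines of 0.84 (SE 0.07, adjusted p = 3.52e-11, edgeR). In the double knockdown it was -0.51 in ACHN (SE 0.05, adjusted p = 1.14e-07, edgeR) and -1.49 in HK-2 (SE 0.05, adjusted p = 4.27e-21, edgeR). The double knockdown held more YY1 than shYY1 cells in ACHN (log2 difference 0.35, SE 0.06, adjusted p = 5.36e-05, edgeR) and in HK-2 (0.22, SE 0.06, adjusted p = 0.00645, edgeR), where the call was lost with all 12 HK-2 libraries in the fit (adjusted p = 0.152) but not with the 11 other than shKDM5C replicate 1 (0.00114). Any effect of shYY1 compared between the lines below thus compares unequal depletions.

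YY2, a retrogene copy of YY1 whose protein shares its zinc fingers, was scarce, and 39.9% of its exonic bases are shared with MBTPS2, so its counts are uncertain. ACHN shCtrl libraries held 26, 24 and 29 counts and the double knockdown 70, 68 and 46, or 1.35, 1.29 and 1.56 CPM against 3.59, 3.75 and 1.87. All 3 double-knockdown libraries were above the controls, a log2 fold change of 1.11 (SE 0.28, adjusted p = 0.00197, edgeR). HK-2 cells had 5.46, 4.28 and 4.70 CPM in shCtrl and 3.88, 3.74 and 3.07 in the double knockdown (log2 fold change -0.42, SE 0.21, adjusted p = 0.0940, edgeR). The groups did not overlap in HK-2 either, in the opposite direction, and the double-knockdown effect differed between lines by 1.55 log2 units (SE 0.35, adjusted p = 0.000471, edgeR).

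RYBP binds YY1 and is a subunit of variant PRC1, and its direction with shYY1 differed between the lines. ACHN shCtrl libraries held 86.2, 89.2 and 92.5 CPM, shYY1 50.6, 50.5 and 45.2, and the double knockdown 70.4, 78.4 and 69.9. The fall with shYY1 was 0.89 log2 units (log2 fold change -0.89, SE 0.05, adjusted p = 2.70e-17, edgeR) and smaller in the double knockdown (-0.29, SE 0.06, adjusted p = 0.000150, edgeR). The shYY1 and double-knockdown libraries did not overlap, and the difference between them was 0.58 (SE 0.06, adjusted p = 4.95e-07, edgeR). HK-2 libraries held 48.8, 47.7 and 41.5 CPM in shCtrl, 52.8, 52.2 and 58.9 with shYY1 and 65.2, 59.5 and 61.6 in the double knockdown. RYBP rose there in the double knockdown (log2 fold change 0.44, SE 0.07, adjusted p = 3.07e-06, edgeR), a call lost with all 12 HK-2 libraries in the fit (adjusted p = 0.0681) but not with the 11 other than shKDM5C replicate 1 (5.34e-06). With shYY1 it was 0.25 higher (SE 0.08, adjusted p = 0.0149, edgeR), a call lost without shCtrl replicate 3 (adjusted p = 0.122) or shYY1 replicate 3 (0.113), or with all 12 HK-2 libraries in the fit (0.467, against 0.0101 with 11). The shYY1 effect on RYBP differed between the lines by -1.13 (SE 0.09, adjusted p = 4.62e-11, edgeR) and the double-knockdown effect by -0.72 (SE 0.09, adjusted p = 1.56e-07, edgeR). YAF2, its paralog, was lower in ACHN with shKDM5C and in the double knockdown and did not pass in HK-2.

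**Figure D3:**
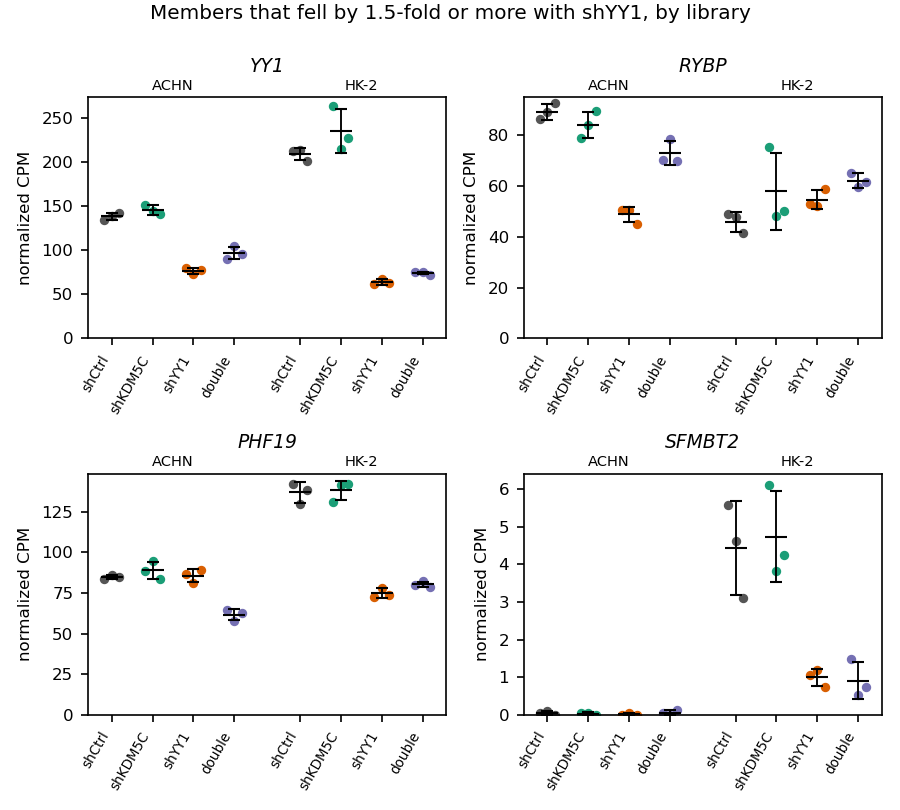
Normalized CPM (y axis) by library in the 8 groups (x axis) for YY1, RYBP, PHF19 and SFMBT2; points are libraries, bars mean and SD (n = 3). Within ACHN, RYBP is lowest in shYY1 cells, PHF19 falls with shYY1 in HK-2 and only in the double knockdown in ACHN, and SFMBT2 is near 0 in ACHN.

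Of the 6 PRC2 core genes, shYY1 in ACHN lowered 4 (EZH1, SUZ12, RBBP4 and RBBP7) and raised 2 (EZH2 and EED), and the double knockdown lowered 3 (EZH2, RBBP4 and RBBP7) and raised none, where shYY1 lowered 24.5% and raised 24.2% of all genes and the double knockdown 32.0% and 30.7%. SUZ12, which PRC2 needs to assemble, fell by 0.58 log2 units with shYY1 (log2 fold change -0.58, SE 0.04, adjusted p = 2.32e-14, edgeR), short of 1.5-fold, and was at 0.05 in the double knockdown (adjusted p = 0.454, edgeR). EZH2, the catalytic subunit, had the change furthest from 0 among the core genes. ACHN libraries held 110, 114 and 111 CPM in shCtrl, 113, 112 and 112 with shKDM5C, 127, 124 and 123 with shYY1, and 60.8, 59.0 and 62.7 in the double knockdown. Only the double knockdown was low, and shYY1 libraries were the highest. The log2 fold change was 0.14 with shYY1 (SE 0.03, adjusted p = 0.00128, edgeR) and -0.87 in the double knockdown (SE 0.05, adjusted p = 1.88e-11, edgeR). HK-2 libraries held 82.8, 79.9 and 85.1 CPM in shCtrl, 93.2, 94.8 and 97.1 with shYY1 and 73.8, 69.4 and 74.2 in the double knockdown. EZH2 was higher there with shYY1 too (0.20, SE 0.06, adjusted p = 0.00850, edgeR), a call lost with all 12 HK-2 libraries in the fit (adjusted p = 0.190, against 0.0058 with the 11 other than shKDM5C replicate 1). In the HK-2 double knockdown it was -0.18 (SE 0.06, adjusted p = 0.00902, edgeR), a call lost without shCtrl replicate 3 (adjusted p = 0.0512) or double-knockdown replicate 2 (0.0565), or with all 12 HK-2 libraries in the fit (0.117, against 0.00893 with 11). The double-knockdown effect was larger in ACHN by -0.67 log2 units (SE 0.07, adjusted p = 8.13e-09, edgeR).

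RBBP7 was also lowest in the double knockdown, but unlike EZH2 it was lower, not higher, with shYY1 in ACHN (log2 fold change -0.21). ACHN libraries held 120, 117 and 118 CPM in shCtrl, 103, 103 and 106 with shYY1, and 77.0, 78.8 and 76.4 in the double knockdown, with no overlap between these groups. The double-knockdown change was -0.61 (SE 0.05, adjusted p = 1.52e-09, edgeR), against -0.26 in HK-2 (SE 0.04, adjusted p = 6.15e-06, edgeR), where shCtrl held 313, 303 and 325 CPM and the double knockdown 260, 255 and 266. EZH2 is a gene of cycling cells, and proliferation markers moved in the same comparisons. Of 8 such markers, 5 were lower and 2 higher in the ACHN double knockdown (median log2 -0.50) and 6 lower and 0 higher in HK-2 (median -0.40), where 32.0% of all genes were lower and 30.7% higher in ACHN, and 24.3% and 25.5% in HK-2. Their summed level ran from 1390 to 1430 CPM in ACHN shCtrl and from 1120 to 1200 in the double knockdown, and from 2590 to 2650 and from 1890 to 1980 CPM in HK-2. E2F1 fell by 0.96 log2 units in the ACHN double knockdown and by 0.28 in HK-2. Their part in the EZH2 and RBBP7 results was not tested. EZH1, the paralog of EZH2 that resting cells use, was -0.31 in ACHN shYY1 cells (SE 0.07, adjusted p = 0.000675, edgeR) and 0.36 in the HK-2 double knockdown (SE 0.09, adjusted p = 0.00167, edgeR).

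PRC2 accessory proteins direct the core complex to chromatin, JARID2 and AEBP2 in one form and the Polycomb-like proteins PHF1, MTF2 and PHF19 in another. In both double knockdowns JARID2, PHF1 and MTF2 rose and PHF19 fell. JARID2 was at 14.0, 14.7 and 14.5 CPM in ACHN shCtrl, 20.5, 19.9 and 18.6 with shYY1 and 21.4, 22.1 and 18.9 in the double knockdown. It was at 24.8, 26.1 and 25.6 CPM in HK-2 shCtrl, 31.1, 29.6 and 28.2 with shYY1, 40.7, 35.4 and 36.5 with shKDM5C and 51.3, 51.1 and 55.3 in the double knockdown. Every knockdown library was above the controls of its line except for shKDM5C in ACHN (14.02, 14.96 and 13.41), while the shYY1 value in HK-2 did not pass (0.22, SE 0.09, adjusted p = 0.0644, edgeR). The double-knockdown change was 1.05 in HK-2 (SE 0.07, adjusted p = 3.02e-13, edgeR) and 0.53 in ACHN (SE 0.09, adjusted p = 4.77e-05, edgeR), a difference of -0.50 (SE 0.11, adjusted p = 0.000556, edgeR).

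PHF1 stood at 34.98, 35.12 and 36.81 CPM in HK-2 shCtrl, 33.9, 31.9 and 35.3 with shYY1 and 73.4, 65.8 and 76.6 in the double knockdown. The rise there was 1.02 on the log2 scale (SE 0.07, adjusted p = 1.01e-13, edgeR), and single knockdown libraries were not above the controls except shKDM5C replicates 2 and 3 (39.1 and 40.6, with 17.4 in replicate 1). In ACHN it was higher in all 3 knockdowns, by 0.40 with shKDM5C, 0.29 with shYY1 and 0.45 in the double knockdown (adjusted p = 0.000832, edgeR). MTF2 went from 58.0, 61.8 and 63.9 CPM in HK-2 shCtrl to 99.6, 96.8 and 99.1 in the double knockdown (0.69, SE 0.06, adjusted p = 9.52e-12, edgeR). Unlike PHF1, it was above the controls in every single-knockdown library, at 102, 76.4 and 81.3 CPM with shKDM5C and 70.7, 71.9 and 74.7 with shYY1. The double-knockdown change minus the sum of the single ones was -0.07 (adjusted p = 0.832, edgeR), and 0.10 without shKDM5C replicate 1 (0.423). In ACHN MTF2 held 39.6, 39.7 and 38.5 CPM in shCtrl, 50, 53.1 and 55.9 with shKDM5C and 49.0, 56.1 and 46.0 in the double knockdown. That is a log2 fold change of 0.42 with shKDM5C (SE 0.05, adjusted p = 3.71e-07, edgeR) and 0.36 in the double knockdown (SE 0.07, adjusted p = 0.000240, edgeR).

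PHF19, whose start region holds both motifs shown above, behaved differently in the lines. HK-2 libraries held 142, 130 and 138 CPM in shCtrl, 131, 141 and 142 with shKDM5C, 72.4, 78.2 and 74.0 with shYY1 and 80.0, 82.2 and 79.0 in the double knockdown. Libraries with a YY1 hairpin were clearly apart from those without, at -0.87 with shYY1 (SE 0.06, adjusted p = 1.39e-10, edgeR) and -0.76 in the double knockdown (SE 0.05, adjusted p = 1.95e-13, edgeR). ACHN libraries held 83.5, 86.2 and 84.8 CPM in shCtrl, 86.4, 81.2 and 89.2 with shYY1 and 64.3, 57.7 and 62.8 in the double knockdown. There shYY1 overlapped the controls (-0.01, SE 0.04, adjusted p = 0.858, edgeR) and only the double knockdown was lower (-0.46, SE 0.05, adjusted p = 5.56e-07, edgeR). The shYY1 effect differed between the lines by 0.87 (SE 0.07, adjusted p = 3.54e-11, edgeR). Among the other genes with YY1 letters in a start window, shYY1 gave no common direction. RBBP7 was -0.21 in ACHN and 0.12 in HK-2 (adjusted p = 0.0634, edgeR), and L3MBTL2 0.32 and 0.28. MTF2, which also holds both motifs, was -0.15 in ACHN (adjusted p = 0.0245, edgeR) and 0.24 in HK-2 (adjusted p = 0.00492, edgeR). Both calls were lost with all groups of a line in the fit (adjusted p = 0.138 and 0.288). The ACHN call was also lost with DESeq2 (0.0889) and with no low-count filter (0.072). It was lost, too, without any one of shCtrl replicates 1 and 2 and shYY1 replicates 2 and 3 (0.0619 to 0.0783). The HK-2 call stayed without the shKDM5C library that stood apart (0.00226). BMI1 was -0.34 and 0.29, RNF2 -0.50 and 0.07, PCGF1 0.27 and -0.00, PHC3 -0.03 and -0.50, and ASXL1 0.19 and -0.08. RNF2, PCGF1 and ASXL1 did not pass in HK-2, nor PHC3 in ACHN. The HK-2 calls of BMI1 and L3MBTL2 were lost with all groups of the line in the fit.

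The CBX genes encode the PRC1 subunits that bind methylated histone H3. In ACHN none of the 4 listed reached 1.5-fold. CBX2 and CBX6 were lower with shKDM5C, and in the double knockdown CBX8 was lower and CBX6 higher. CBX7, 21.6% of whose exonic bases are shared with other genes, was at 6.01, 3.78 and 6.04 CPM in HK-2 shCtrl (109, 68 and 117 counts), 5.95, 7.91 and 6.93 with shYY1, and 11.2, 10.2 and 10.4 in the double knockdown. The double-knockdown libraries were all above the others (log2 fold change 1.01, SE 0.17, adjusted p = 7.79e-06, edgeR). In ACHN they ranged from 9.55 to 14.1 CPM around shCtrl values of 11.3, 11.6 and 11.5, and the effect differed between lines by -0.92 (SE 0.22, adjusted p = 0.000834, edgeR). CBX8 fell in both double knockdowns, by -0.39 in ACHN (adjusted p = 0.00636, edgeR) and by -0.46 in HK-2 (adjusted p = 0.000410, edgeR). Its HK-2 call was lost with all 12 HK-2 libraries in the fit.

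PCGF proteins define the PRC1 variants. PCGF2 passed 1.5-fold in the ACHN double knockdown, but 45.7% of its exonic bases are shared with CISD3 and another gene. Its libraries held 56.0, 58.0 and 58.1 CPM in shCtrl, 67.1, 66.3 and 65.9 with shKDM5C, 51.8, 54.6 and 53.9 with shYY1 and 95.5, 92.9 and 96.1 in the double knockdown. No group overlapped another, and the double-knockdown change was 0.73 (SE 0.05, adjusted p = 3.30e-10, edgeR). HK-2 double-knockdown libraries (44.7, 47.4 and 45.3) were slightly above shCtrl (41.4, 42.5 and 40.0) at 0.16 (SE 0.07, adjusted p = 0.0567, edgeR), a difference of 0.59 between lines (SE 0.08, adjusted p = 4.85e-07, edgeR). BMI1, a PCGF protein known as an oncogene, shares 23.3% of its exonic bases with the COMMD3-BMI1 readthrough gene. It fell in ACHN with shKDM5C (-0.49, SE 0.06, adjusted p = 2.53e-07, edgeR) and shYY1 (-0.34, SE 0.06, adjusted p = 5.41e-06, edgeR) and rose in HK-2 with shYY1 (0.29, SE 0.08, adjusted p = 0.0111, edgeR). The HK-2 call was lost with all groups of the line in the fit, where 0 members were higher with shYY1. BMI1 stood at 0.06 and -0.08 in the ACHN and HK-2 double knockdowns. PCGF5 fell in both double knockdowns (-0.37 and -0.33).

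RING1 and RNF2 are the alternative ubiquitin ligases of PRC1. RING1 fell stepwise in ACHN, from 50.33, 50.01 and 52.24 CPM in shCtrl to 35.6, 38.8 and 36.5 with shKDM5C, 38.90, 35.02 and 37.56 with shYY1 and 24.3, 20.2 and 20.6 in the double knockdown. The single knockdowns overlapped each other, and both lay between the control and the double knockdown. The changes were -0.48 with either hairpin alone (SE 0.05 each, adjusted p = 3.66e-08 with shKDM5C and 5.04e-09 with shYY1, edgeR) and -1.23 with both (SE 0.07, adjusted p = 6.32e-11, edgeR). In HK-2 shCtrl libraries held 38.2, 37.0 and 40.9 CPM and the double knockdown 28.8, 33.1 and 38.1, which overlap. That change of -0.21 (SE 0.09, adjusted p = 0.0484, edgeR) did not pass without any one shCtrl library or double-knockdown replicate 1 or 2 (adjusted p = 0.0527 to 0.334, edgeR), nor with DESeq2 (0.0834), without the low-count filter (0.0547), or with all 12 HK-2 libraries in the fit (0.395) or the 11 other than shKDM5C replicate 1 (0.0622). The difference between lines was -1.0 (SE 0.12, adjusted p = 6.92e-08, edgeR). RNF2 was -0.50 in ACHN shYY1 cells (SE 0.06, adjusted p = 2.93e-08, edgeR), 0.21 with shKDM5C and -0.18 in the double knockdown, and 0.39 in the HK-2 double knockdown (SE 0.08, adjusted p = 6.44e-05, edgeR). The HK-2 call of RNF2 may not have held with all 12 HK-2 libraries in the fit.

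PHC proteins polymerize PRC1 through a SAM domain. PHC2 rose in the double knockdown of both lines. ACHN libraries held 56.16, 54.96 and 49.98 CPM in shCtrl, 78.8, 81.9 and 72.9 with shKDM5C, 55.9, 55.5 and 53.2 with shYY1 and 133, 114 and 129 in the double knockdown. HK-2 libraries held 75.4, 73.1 and 75.6 in shCtrl, 56.1, 78.8 and 80.0 with shKDM5C, 78.4, 76.4 and 75.2 with shYY1 and 164, 149 and 157 in the double knockdown. Double-knockdown libraries were above all others in each line. The changes were 1.22 in ACHN (SE 0.06, adjusted p = 4.90e-12, edgeR) and 1.08 in HK-2 (SE 0.05, adjusted p = 2.95e-17, edgeR), and their difference of 0.16 (SE 0.08, adjusted p = 0.107, edgeR) did not pass. With shYY1 alone PHC2 was at 0.01 and 0.04. PHC1 rose in both double knockdowns by 0.31, and PHC3 was 0.19 in ACHN and -0.17 in HK-2.

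**Figure D4:**
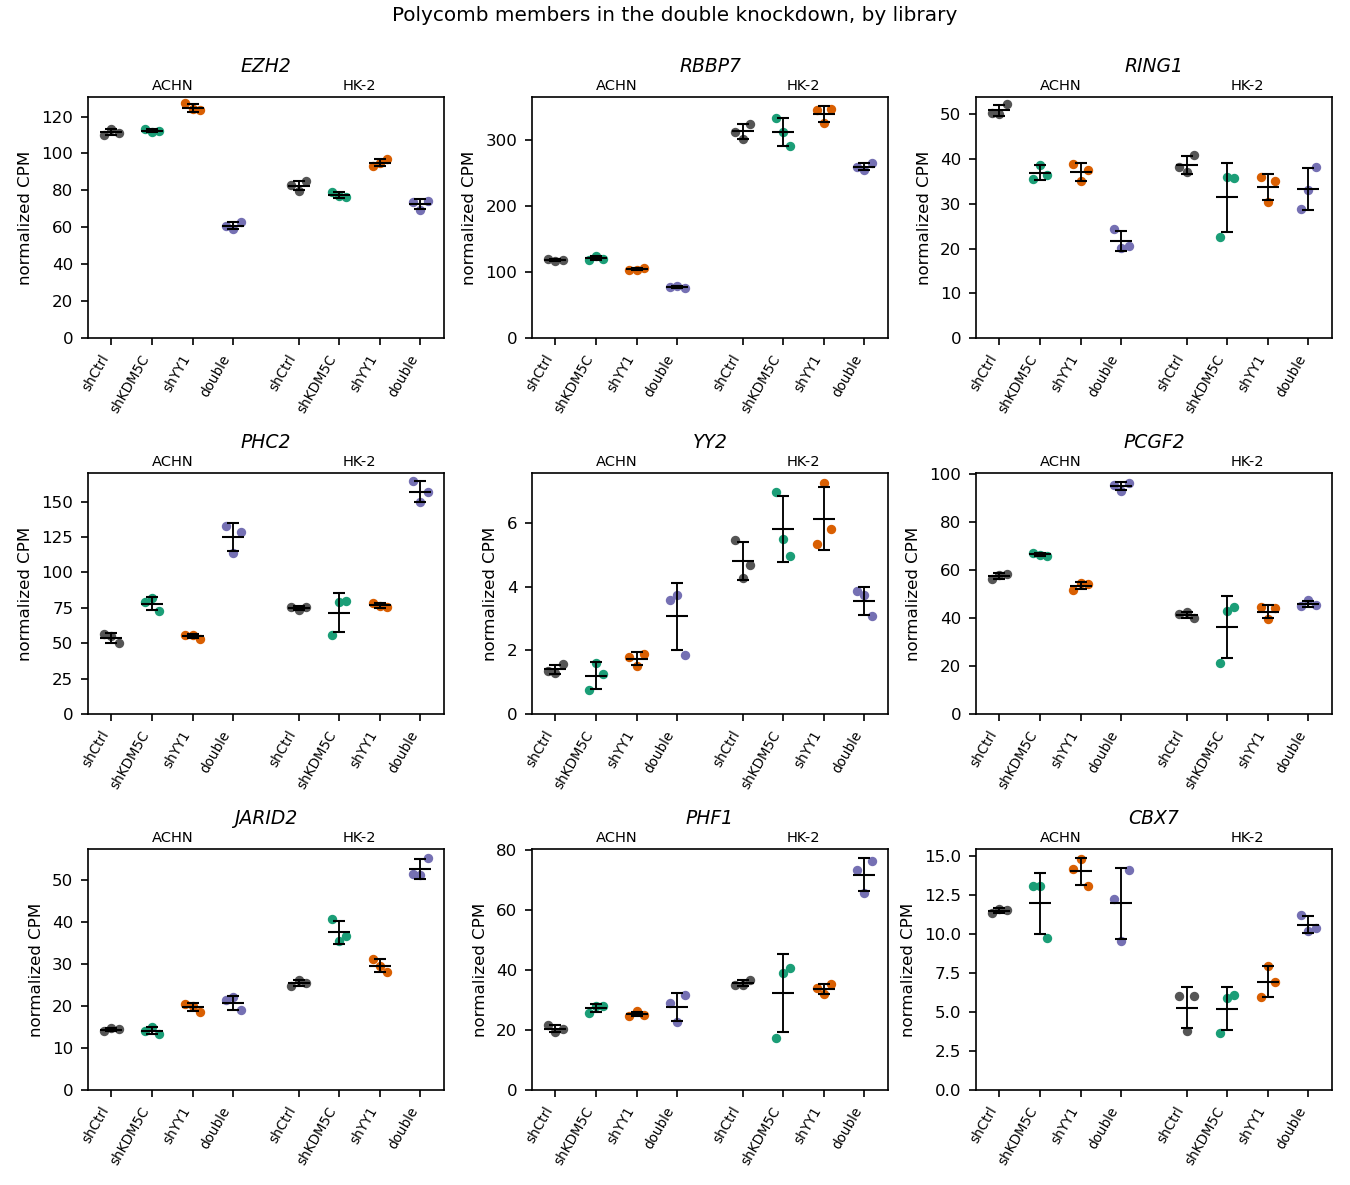
Normalized CPM (y axes) by library in the 8 groups (x axes) for 9 members; points are libraries, bars mean and SD (n = 3). Double-knockdown libraries are lowest for EZH2, RBBP7 and RING1 in ACHN and highest for PHC2 in both lines, and, within HK-2, for JARID2, PHF1 and CBX7; HK-2 shKDM5C replicate 1 lies apart for PHF1, PCGF2 and RING1.

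MBT-domain proteins bind methylated histones, and L3MBTL2 sits in a variant PRC1. L3MBTL2 held 15.7, 17.1 and 14.6 CPM in ACHN shCtrl, 26.3, 27.5 and 26.6 with shKDM5C, 20.3, 21.2 and 18.6 with shYY1 and 27.6, 26.1 and 29.5 in the double knockdown. All knockdown libraries were above the controls, by 0.75 with shKDM5C (SE 0.08, adjusted p = 4.65e-09, edgeR), 0.32 with shYY1 (SE 0.08, adjusted p = 0.00110, edgeR) and 0.82 with both (SE 0.09, adjusted p = 1.25e-07, edgeR). SFMBT1 held 15.8, 15.5 and 18.7 CPM in ACHN shCtrl and 24.6, 26.5 and 26.7 with shKDM5C (0.62, SE 0.08, adjusted p = 2.72e-07, edgeR). In HK-2 SFMBT1 fell with shYY1, from 24.7, 24.1 and 24.1 to 18.1, 16.5 and 16.3 CPM (-0.52, SE 0.10, adjusted p = 0.000301, edgeR), and returned to 21.9, 25.0 and 23.6 in the double knockdown. In HK-2 L3MBTL2 held 34.0, 30.4 and 34.1 CPM in shCtrl, 40.8, 38.8 and 40.5 with shYY1 and 41.8, 39.7 and 35.7 in the double knockdown. It was 0.28 higher with shYY1 (SE 0.08, adjusted p = 0.00732, edgeR), a call lost without shCtrl replicate 2 (adjusted p = 0.0525), and 0.26 higher in the double knockdown (SE 0.08, adjusted p = 0.00805, edgeR), a call lost without shCtrl replicate 2 (0.0561) or double-knockdown replicate 1 (0.0612). With all 12 HK-2 libraries in the fit neither passed (adjusted p = 0.293 with shYY1 and 0.216 in the double knockdown, edgeR), and with the 11 other than shKDM5C replicate 1 both did (0.00722 and 0.00646). Of the exonic bases of L3MBTL2 and SFMBT1, 16.3% and 13.8% are shared with other genes.

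SFMBT2, an MBT protein that binds YY1, had the log2 fold changes furthest from 0 among the members in the comparisons with shCtrl. HK-2 libraries held 101, 83 and 60 counts in shCtrl, 89, 73 and 78 with shKDM5C, 18, 20 and 13 with shYY1 and 25, 9 and 13 in the double knockdown, or 5.57, 4.61 and 3.10 CPM in shCtrl against 1.07, 1.19 and 0.750 with shYY1. Every library with a YY1 hairpin was below every library without one. The log2 fold changes were -2.13 with shYY1 (SE 0.30, adjusted p = 1.18e-05, edgeR) and -2.26 in the double knockdown (SE 0.33, adjusted p = 9.62e-07, edgeR). In ACHN no library held more than 3 counts. ASXL1 and BAP1, the scaffold and the deubiquitinase of PR-DUB, stayed short of 1.5-fold in the comparisons with shCtrl. Both were higher in ACHN with shKDM5C (ASXL1 0.43, SE 0.03, adjusted p = 4.21e-11, edgeR) and with shYY1, and both were lower in the HK-2 double knockdown.

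The 19 members without values by library stayed between -0.58 and 0.57 on the log2 scale in the 6 comparisons with shCtrl, and those of them that passed between -0.58 and 0.43.

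Whether the double knockdown equals the sum of the single ones was tested with all 12 libraries of a line (the interaction, a difference of log2 changes). In ACHN 10 members were below the sum and 13 above, against 28.8% and 26.8% of all genes. EZH2 was furthest below, at -1.03 (SE 0.06, adjusted p = 7.3e-14, edgeR), followed by ASXL1 (-0.63, SE 0.05, adjusted p = 1.54e-10, edgeR) and PCGF5 (-0.61, SE 0.07, adjusted p = 1.11e-07, edgeR), then PHF19 (-0.52) and RBBP7 (-0.45). BMI1 (0.87, SE 0.09, adjusted p = 1.42e-08, edgeR), CBX6 (0.79, SE 0.07, adjusted p = 1.69e-10, edgeR), RYBP (0.68, SE 0.08, adjusted p = 8.77e-08, edgeR), PHC2 (0.67, SE 0.08, adjusted p = 1.81e-07, edgeR) and PCGF2 (0.63, SE 0.06, adjusted p = 4.75e-09, edgeR) were above it. For YY1 the value was 0.28 (SE 0.07, adjusted p = 0.00125, edgeR), so the double-knockdown cells were also the less depleted ones, and how far this moved the other members was not tested. RING1 was below it (-0.30, SE 0.10, adjusted p = 0.0106, edgeR), a call lost on total counts (adjusted p = 0.0730). YY2 (1.04, SE 0.42, adjusted p = 0.0399, edgeR) lost the call in 9 of 12 cases when 1 library was left out, all but shKDM5C replicate 2, shYY1 replicate 3 and double-knockdown replicate 3 (adjusted p up to 0.119). L3MBTL2 (-0.28, SE 0.11, adjusted p = 0.0361, edgeR) lost it in 8 of 12, all but shCtrl replicate 2, shYY1 replicate 3 and double-knockdown replicates 1 and 3 (up to 0.11), and also with DESeq2 (0.0591), total counts (0.174), no low-count filter (0.0560) and the stricter filter (0.0519).

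In HK-2 cells, where shKDM5C replicate 1 enters this test, 2 members (YY2 and RBBP4) were below the sum and 3 (PHF1, PHC1 and PHC2) above, against 4.40% and 5.21% of all genes. Without that library 6 were below and 5 above (13.7% and 15.0%). PHC2 was above the sum in both versions, by 1.09 (SE 0.16, adjusted p = 0.00130, edgeR) and 0.96 without it (SE 0.08, adjusted p = 1.51e-10, edgeR). PHF1 was 1.23 (SE 0.31, adjusted p = 0.0282, edgeR), a call lost without any one of the shCtrl, shYY1 or double-knockdown libraries, and 0.95 without shKDM5C replicate 1 (SE 0.11, adjusted p = 5.67e-08, edgeR). YY2 was -1.07 (SE 0.29, adjusted p = 0.0338, edgeR), lost without any one of the same libraries except shYY1 replicate 1, without the low-count filter (0.0636) and with the replicate block (0.0509), and -0.89 without shKDM5C replicate 1 (SE 0.28, adjusted p = 0.0164, edgeR). EZH2, at -0.31 (adjusted p = 0.111, edgeR), was -0.26 without the library (adjusted p = 0.0139, edgeR), and RBBP7 went from -0.40 (adjusted p = 0.0503, edgeR) to -0.32 (adjusted p = 0.000489, edgeR). EZH2 and RBBP7 were thus below the sum and PHC2 above it in both lines once the library was left out, whereas PHF1 passed in HK-2 alone and was -0.25 in ACHN (adjusted p = 0.0984, edgeR).

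**Figure D5:**
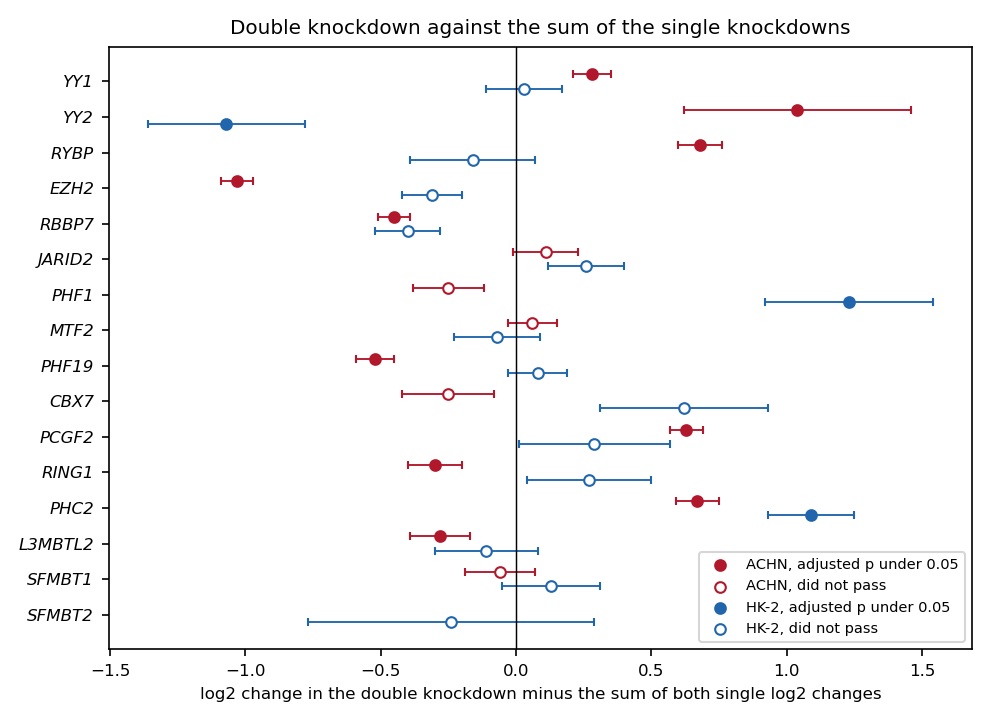
Log2 change in the double knockdown minus the sum of the single log2 changes (x axis) for the 16 members with values by library (rows), with SEs; filled symbols passed an adjusted p under 0.05 (edgeR), and the HK-2 values include shKDM5C replicate 1. EZH2 lies at -1.03 in ACHN and PHC2 to the right of 0 in both lines.

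For shKDM5C in HK-2 the same library decided the calls. Without it 1 member was lower (PCGF5, -0.40, SE 0.08, adjusted p = 0.000385, edgeR) and 6 were higher, against 10.9% and 11.5% of all genes. The 6 were JARID2 (0.49, SE 0.09, adjusted p = 0.000132, edgeR), CBX6 (0.37), MTF2 (0.36), EZH1 (0.30), SUZ12 (0.26) and RBBP4 (0.16). With the library included JARID2 was 0.58 (SE 0.13, adjusted p = 0.110, edgeR), so its value moved little and its error more.

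Compared directly between the lines, the shYY1 effect was lower in ACHN for 10 members and higher for 6, against 16.5% and 16.6% of all genes, and the double-knockdown effect was lower for 9 and higher for 9, against 22.7% and 23.3%. The shKDM5C effect was lower for 4 and higher for 3 with all libraries (6.18% and 5.74%) and lower for 11 and higher for 8 without HK-2 shKDM5C replicate 1 (15.4% and 18.6%). For shYY1, 4 of the 6 PRC2 core genes had a lower log2 change in ACHN (EZH1, SUZ12, RBBP4 and RBBP7), and so had RNF2 (-0.56, SE 0.10, adjusted p = 9.77e-05, edgeR). RING1 passed at -0.27 (SE 0.10, adjusted p = 0.0335, edgeR), and lost the call in 8 of 12 cases when 1 library was left out, all but ACHN shCtrl replicate 2, ACHN shYY1 replicate 1, HK-2 shCtrl replicate 3 and HK-2 shYY1 replicate 2 (up to 0.102), and also with DESeq2 (0.0514) and with all 24 libraries in the fit (0.421) or 23 of them (0.0931). The shKDM5C effect on CBX6 differed by -0.85 with all libraries (SE 0.09, adjusted p = 0.000167, edgeR) and by -0.84 without that library (SE 0.06, adjusted p = 7.56e-13, edgeR).

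Partner genes of the complexes were followed as lists, beside the 32.0% of all genes that were lower and 30.7% higher in the ACHN double knockdown, and the 24.3% and 25.5% in HK-2. Of 25 PRC1 partners, the ACHN double knockdown lowered 9 and raised 10, and the HK-2 double knockdown lowered 6 and raised 5 of 24 tested, shares near those of all genes in HK-2. AUTS2, a subunit of variant PRC1, fell in ACHN with shKDM5C (-2.77) and in the double knockdown (-2.97) and rose by 0.62 with shYY1. Of the 10 PR-DUB partners 9 were tested in ACHN, where the double knockdown raised 6, among them FOXK1 (1.04), and lowered 1, KDM1B (-1.13). In the HK-2 double knockdown 1 was lower and 2 were higher of 9 tested (median log2 0.02). Of 5 enzymes that remove the Polycomb marks, 4 were higher in the ACHN and 3 in the HK-2 double knockdown, with KDM6B at 1.19 and 0.50, and USP16 the 1 that fell, at -0.45 and -0.97. Of the 4 PRC2 partners 3 were tested. In the ACHN double knockdown 1 (LCORL) was lower, and in HK-2 EPOP was lower and LCOR and LCORL were higher.

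The 14 subunits of the INO80 complex, which works with YY1, were counted in the same way. With shYY1 in ACHN 2 were lower and 4 higher (median log2 0.04), where 24.5% and 24.2% of all genes were. With shKDM5C 8 of 14 subunits were higher and 0 lower (median log2 0.16, beside -0.01 for all genes), against 28.9% and 27.7% of all genes, and in the double knockdown 7 were lower and 3 higher (median -0.17), against 32.0% and 30.7%. RUVBL2 was 0.58 with shKDM5C and -0.25 in the double knockdown, and ACTL6A 0.37 and -0.55. Against the sum of the single knockdowns 9 of the 14 were lower and 1 higher, against 28.8% and 26.8%. In HK-2 the double knockdown lowered 5 and raised 4 of 13 tested (24.3% and 25.5% of all genes), and shYY1 lowered 0 and raised 2 (14.7% and 14.3% of all genes).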

How the data were processed

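Gene-level RNA-seq counts of 24 libraries (8 groups of 3, grouped by their labels) were analysed. The deposited values are raw counts, 1 library per table: the authors aligned 150 bp paired-end reads with HISAT2 2.0.5 and counted read pairs with featureCounts (2.0.1 in the file headers, 1.5.0-p3 in the submitters' processing notes) on Ensembl release 84 genes (GRCh38), without strand, so overlapping genes cannot be separated. Genes without a symbol (4117 of 60675) held 0.243% of the counts. Depth was 15926561 to 24272298 counts per library.

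From these counts, CPM were scaled with TMM factors over all libraries. Each comparison was fitted on its own groups with edgeR 4.0.16 in R 4.3.3 (TMM, filterByExpr, quasi-likelihood F test, Benjamini-Hochberg over all genes tested). A call was an adjusted p under 0.05. An exact permutation test of 3 against 3 cannot go below p = 0.1. Values by library are given for YY1 and for members called at 1.5-fold or more, if the group with the higher mean reached 1 CPM, in one of the 6 comparisons with shCtrl. The members and lists were chosen with earlier results of these data known. Alternatives were DESeq2 1.42.0, RLE size factors, total counts, other filters, all groups in the fit, a replicate block and each library left out. Steps were tested on simulated counts. Replicate numbers were not used to pair the samples in the main fits. Correlations of same-numbered deviations ran from -0.349 to 0.146. Differently numbered libraries were not compared, so these values cannot show whether the repeats were paired.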

Additional observations from a re-analysis of the deposited data

Results flagged for a closer look

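The effects of a knockdown on the following members differed between ACHN and HK-2 cells in a test of the difference itself (edgeR, ACHN minus HK-2, log2 units). For shKDM5C, 7 members passed. JARID2 (-0.60), AEBP2 (-0.74), CBX6 (-0.85) and BMI1 (-0.75) had a lower value in ACHN, and PHC2 (0.58), L3MBTL2 (0.68) and ASXL1 (0.47) a higher one. The L3MBTL2 and PHC2 calls were lost without any one library of ACHN shCtrl, ACHN shKDM5C or HK-2 shCtrl. In each of these cases only 2 members were lower instead of 4. JARID2 kept its call in these cases. It lost the call without the low-count filter (adjusted p = 0.106, edgeR) and with the replicate block (0.0803). Without HK-2 shKDM5C replicate 1 all 7 passed, with L3MBTL2 at 0.53 (adjusted p = 0.000508, edgeR) and PHC2 at 0.44 (adjusted p = 3.22e-05, edgeR).

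For shYY1, 16 members passed. RYBP (-1.13), EZH1 (-0.43), SUZ12 (-0.68), RBBP4 (-0.53), RBBP7 (-0.31), AEBP2 (-0.24), MTF2 (-0.38), BMI1 (-0.62), RING1 (-0.27) and RNF2 (-0.56) had a lower value in ACHN. YY1 itself (0.84), PHF1 (0.38), PHF19 (0.87), PHC3 (0.48), SFMBT1 (0.39) and ASXL1 (0.29) had a higher one. The SFMBT1 call was lost without any one of ACHN shCtrl replicates 1 and 2, ACHN shYY1 replicate 1 and HK-2 shYY1 replicate 3 (adjusted p up to 0.111).

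For the double knockdown, 18 members passed. RYBP (-0.72), EZH2 (-0.67), RBBP7 (-0.33), JARID2 (-0.50), PHF1 (-0.55), MTF2 (-0.32), CBX7 (-0.92), RING1 (-1.0) and RNF2 (-0.55) had a lower value in ACHN. YY1 (0.99), YY2 (1.55), PHF19 (0.32), PCGF2 (0.59), PHC3 (0.37), L3MBTL2 (0.58), SFMBT1 (0.51), ASXL1 (0.23) and BAP1 (0.23) had a higher one. With all 24 libraries in the fit PHF1 and MTF2 lost both this call (adjusted p = 0.109 and 0.0547, edgeR) and that for shYY1 (0.392 and 0.0580), and SFMBT1 that for shYY1 (0.116). Relative to shCtrl, YY1 and KDM5C were both less depleted in ACHN than in HK-2, and the part of either in these differences was not tested. Groups of 3 are too small for a test of single outlying libraries.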

How the results depend on the processing

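Counts of members called kept within 1.5 times of the values given under most alternatives. With all 12 HK-2 libraries in the fit the counts fell: with shYY1 0 members were higher instead of 9, in the double knockdown 4 were lower and 6 higher instead of 12 and 13, and against shYY1 the double knockdown had 5 lower and 6 higher instead of 9 and 13, while shKDM5C gained 3 higher. With all 24 libraries in the fit the shYY1 effect was lower in ACHN for 6 and higher for 3 members instead of 10 and 6. With HK-2 shKDM5C replicate 1 left out of these pooled fits, an alternative chosen after seeing the data, the counts for comparisons without shKDM5C came back to within 1.5 times. DESeq2 called 2 members higher with shKDM5C in HK-2 and 4 below the sum of the single knockdowns instead of 2, and total counts 1 instead of 3 with a higher shKDM5C effect in ACHN. The replicate block gave 1 member below the sum in HK-2, and 1 lower and 0 higher for the shKDM5C effect between lines. The replicate numbers were treated only as names in the main fits, and for ACHN against HK-2 in shCtrl no block was fitted.

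Leaving out each library in turn gave these ranges of members lower and higher. For shKDM5C in HK-2 these were 0 to 1 and 0 to 6, for the HK-2 double knockdown against the sum 1 to 6 and 2 to 5, and for the shKDM5C effect between lines 2 to 11 and 1 to 8, each with the higher end when HK-2 shKDM5C replicate 1 was left out. The other counts stayed within 1.5 times.
For the 16 members with values by library, 130 called values were recomputed 1959 times in all. None changed direction, and 134 lost the call. Depth limits YY2 and SFMBT2 most, whose counts are the lowest among the members described by library.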
